A study of Homo sapiens with 6 samples.

Results

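The nuclear genes for the proteins of the mitochondrial ribosome were followed across the 2 conditions of an RNA sequencing experiment in U2932 cells. They were taken as every row of the gene table whose symbol begins with MRPL or MRPS and a digit, with pseudogenes left out. This gave 76 of 34675 rows and 75 symbols, 47 rows named MRPL and 29 named MRPS, on 21 chromosomes. U2932 is an established human cell line derived from lymphoma of the diffuse large B cell type. It was infected with either 1 short hairpin RNA against PRDM11, a PR domain protein of the family of chromatin and transcription regulators, or a scrambled hairpin (3 samples each), and both arms then spent 3 days in puromycin, which kills cells that lack the vector. The comparison asks what depletion of PRDM11 does to gene expression in this single line. It rests on 1 hairpin sequence, and nothing in the labels says that the 3 samples of an arm were separate cultures, so every p-value reflects sample-to-sample spread that may be technical.

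Mitochondria keep a small genome that encodes a few proteins of the respiratory chain and 2 ribosomal RNAs. The proteins of the ribosome that translates those messages are all encoded in the nucleus, made in the cytosol and imported. Some descend from the bacterial ribosome and others were added in the mitochondrial lineage. The large subunit joins amino acids and holds the exit tunnel, and the small subunit binds the message and reads its codons. Symbols that begin with MRPL stand for the large subunit and most that begin with MRPS for the small one. MRPS18A and MRPS30 are proteins of the large subunit in spite of their names, and MRPS36 is now known as a component of the oxoglutarate dehydrogenase complex. They are counted that way here.

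The deposited values name the conditions only A and B, and no label or header ties either letter to the hairpin, so every difference below is condition A relative to condition B. A level is a number of normalised reads, that is, reads divided by the library's size factor, and a log2 ratio of 1 is a doubling in A. Libraries carry numbers 1 to 3 within a condition, by falling size factor, as names only. PRDM11 itself had 268, 272 and 323 normalised reads in the A libraries and 565, 516 and 545 in the B libraries, with no overlap, and the authors' deposited table gave a log2 ratio of -0.91 (adjusted p from DESeq = 1.76e-08). Summed over all genes the condition means came to 43812481 normalised reads in A and 41847907 in B, with size factors between 0.768 and 1.21. Of the markers of other cell types, the T cell genes summed to 9.93 to 23.4 normalised reads in the libraries of A and 5.50 to 11.4 in those of B, with CD5 at or near 0. The myeloid genes summed to 65.3 to 72.9 and 48.6 to 72.3. The B cell gene CD79B had means of 20659 in A and 15441 in B by the authors' deposited table, and passed the test there (log2 ratio 0.42, adjusted p from DESeq = 0.0226). The epithelial gene EPCAM stood out among the other markers with means of 1285 in A and 1242 in B. The other epithelial genes listed were low, with means of 1.59 and 0.306 for KRT8, 8.64 and 12.7 for KRT18, and 0.276 and 0 for CDH1.

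Promoters of these genes are shown first, because many members share short motifs there. A promoter window was the 250 bases before and 50 bases after a start site, read from RefSeq on build GRCh38.p14, and it was found for 66 of the 75 symbols. Windows were searched on both strands for CCGGAAG, the core of sites bound by ETS factors such as GABPA, and for AAGATGGC, the core of sites bound by YY1. An ETS match was present in 28 of the 66 promoters (42.4%), against 20.8% of the 8498 promoters of expressed genes, meaning a mean of 50 or more normalised reads, and 10.7% of all 27305. A YY1 match was present in 19 (28.8%), against 5.97% and 3.03%. Both were present in 8 (12.1%), against 1.46% and 0.597%. The last 3 letters of the ETS motif are the first 3 of the YY1 motif, and 0 of the member matches overlapped in this way. Matches to the NRF1 motif were present in 10.6% of the members and 12.7% of the expressed genes. The E-box CACGTG was present in 9.09% and 10.6%, and TATAAA in 3.03% and 4.99%. A match is a string of letters and shows no binding.

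**Figure D1:**
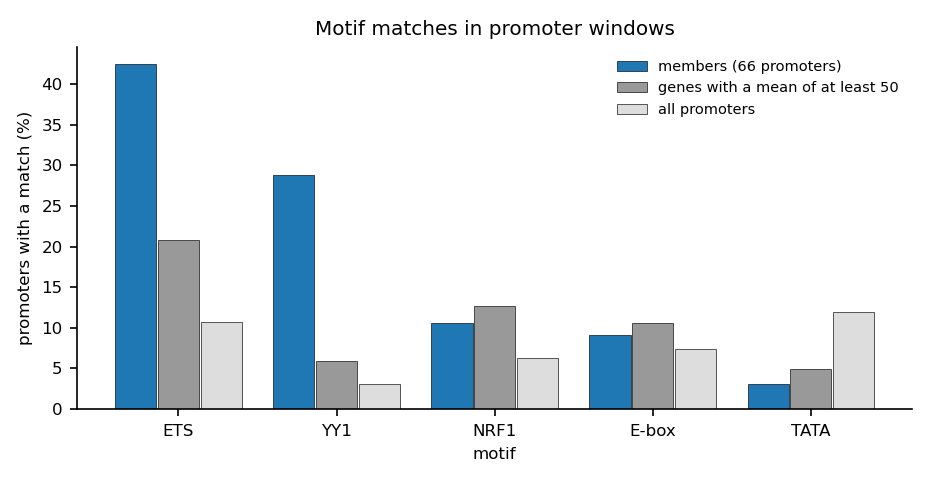
The share of promoter windows (vertical axis, percent) with a match to each of 5 motifs (horizontal axis) is given as bars for the members, for expressed genes and for all promoters. The members' bars are 42.4% for ETS and 28.8% for YY1, above both comparison sets, while those for NRF1, the E-box and TATA lie below the middle bar.

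The stretches below come from members at both ends of the range of log2 ratios, from the most abundant member per kb of coding sequence and from a gene that barely differed. Each is 30 bases of the gene's sense strand, 5′ to 3′, and capitals mark the match or its reverse complement. They show that the same letters occur in the promoter windows of genes with opposite signs.
MRPL40, ETS, chr22:19432523-19432552, plus strand: ggggcgcacgcCCGGAAGcggcgagggtag
MRPS18A, ETS, chr6:43687804-43687833, minus strand: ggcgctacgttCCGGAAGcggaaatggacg
MRPS18A, YY1, chr6:43687764-43687793, minus strand: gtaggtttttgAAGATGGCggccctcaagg
MRPL36, YY1, chr5:1799854-1799883, minus strand: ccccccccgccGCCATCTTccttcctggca
MRPS21, ETS, chr1:150293839-150293868, plus strand: cgtaatttccgCTTCCGGtagtgagaaccc
MRPL3, ETS, chr3:131502985-131503014, minus strand: tgtaaaacgcaCCGGAAGtgggtccggcgg
MRPL16, ETS, chr11:59810766-59810795, minus strand: agtgaacacaaCTTCCGGccccactgagcg
MRPL51, ETS, chr12:6493348-6493377, minus strand: cggcaggcggaCCGGAAGcactgaggcggg
MRPL51, YY1, chr12:6493223-6493252, minus strand: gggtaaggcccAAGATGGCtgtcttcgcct

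The 37 ETS matches began at a median of -22 from the start, and the 20 YY1 matches at a median of 10, with 14 of the 20 after the start. The YY1 letters contain ATG, and whether any of these is the start codon was not tested. Members with an ETS match had a median log2 ratio of 0.01 and those without one of -0.0014. The medians were 0.02 and -0.01 with and without a YY1 match. Neither motif split the members by their difference between the conditions.

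The mitochondrial ribosomal protein genes showed little difference between the conditions. By the authors' deposited table, 0 of the 76 passed an adjusted p of 0.05 from DESeq, where 2.54% of all 34675 genes did, 0.966% higher and 1.57% lower in A. Among expressed genes, which include 75 of the members, the share was 6.04%. The smallest adjusted p of a member was 0.112 (DESeq), for MRPS25. At an unadjusted p of 0.05, 8 members passed (10.5%), 6 of them lower and 2 higher in A, against 9.61% of all genes and 20.8% of expressed genes. Of the 7842 genes with a mean inside the 5th to 95th percentile of the members' means, the genes of similar level below, 19.2% passed at that unadjusted p. In bulk RNA, fewer cells that express a gene and less of its RNA per cell cannot be told apart.

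The spread of the members' log2 ratios was narrow and centred on 0. Their median was -0.0045 in the authors' deposited table, and -0.0035 over the 75 expressed ones, next to -0.0024 for all 13565 genes at that level. Of the 75, 37 were higher and 38 lower in A, and the ratios ran from -0.40 to 0.36. Their SD was 0.178, smaller than the 0.287 of all expressed genes and the 0.242 of genes of similar level. Ratios beyond 0.25 on the log2 scale in either direction were found in 17.3% of the members, 31.4% of expressed genes and 25.6% of genes of similar level. No test compared these spreads.

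Reads per library, recovered from the condition means, gave an error for 72 expressed members. The limma test on these reads called 1 of the 72, MRPS25, against 9.26% of 16810 genes, and 14 at an unadjusted p of 0.05, against 27.2% of the genes. The median standard error of a member's log2 ratio was 0.097, with a range of 0.075 to 0.165. For 67 of the 72 the 95% interval lay inside 1.5-fold in both directions, and for MRPL24, MRPL51, MRPL30, MRPS11 and MRPL40 it reached past that bound. In 64 of the 72 (88.9%) the range of 1 condition's libraries was larger than the log2 ratio, as it was in 76.9% of 12762 genes. The libraries of A and B did not overlap in 15 members, 12 with A below and 3 with A above, while 34.5% of expressed genes had no overlap, 18.6% with A below and 15.9% with A above.

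**Figure D2:**
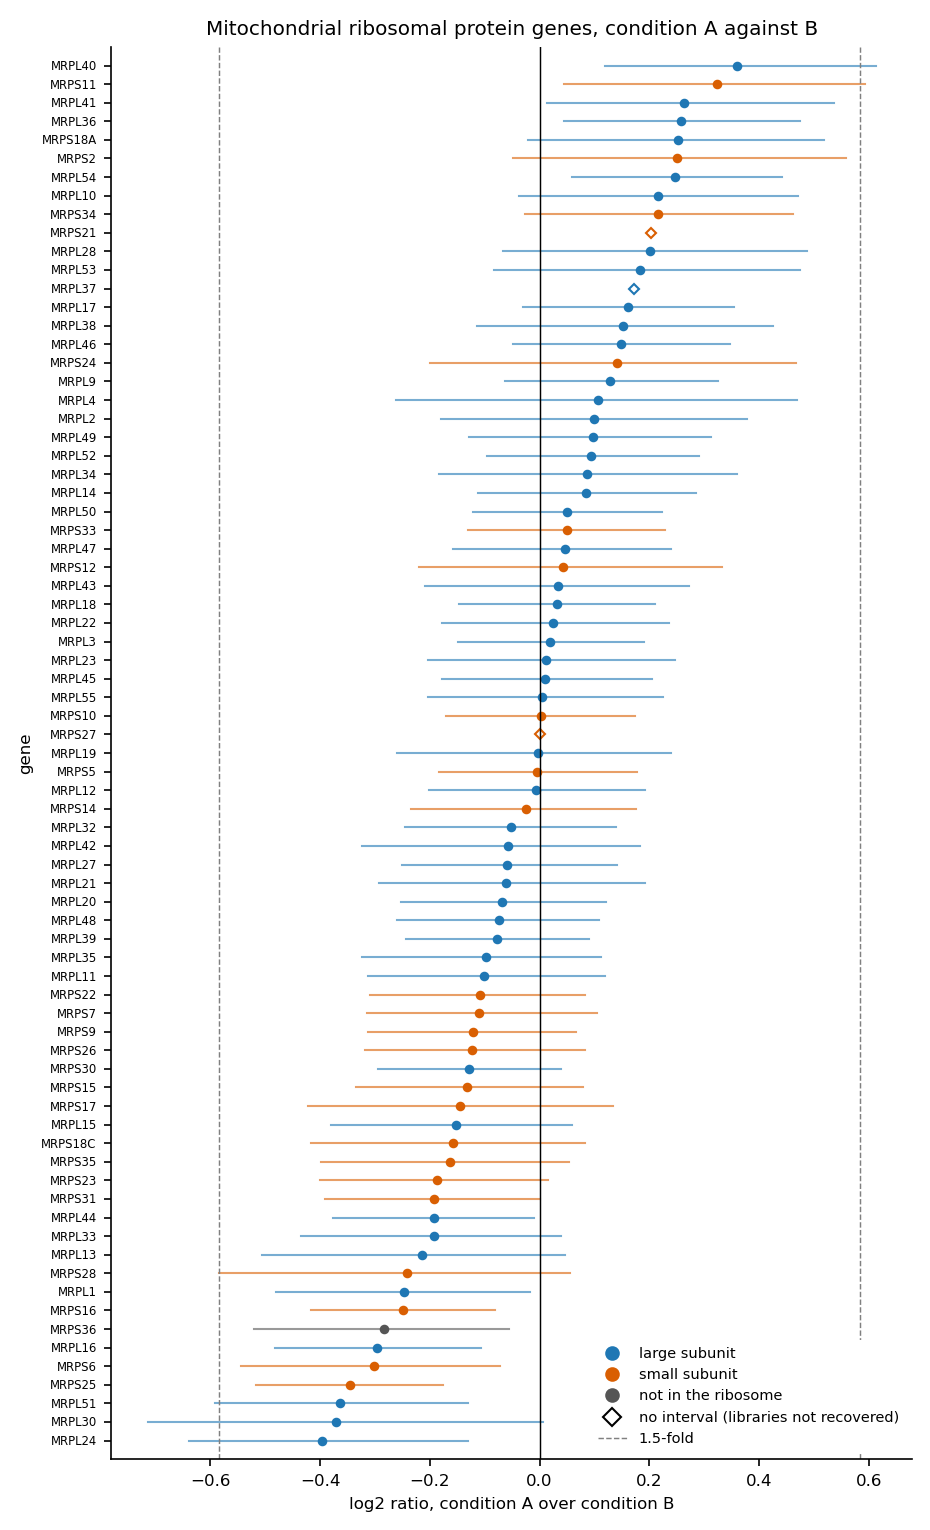
Each row is 1 of the 75 expressed members, ordered by the authors' deposited log2 ratio of A over B (horizontal axis, points), with the 95% limma interval as a line and dashed lines at 1.5-fold. Points run from -0.40 (MRPL24) to 0.36 (MRPL40), 14 of 72 intervals leave out 0, and 3 open diamonds are members whose libraries in A were not recovered.

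The large subunit was balanced and the small subunit leaned towards lower values in A. Of the 49 large subunit members, 28 were higher and 21 lower, with a median of 0.02, and of the 25 small subunit members, 9 were higher and 16 lower, with a median of -0.11. The difference between the subunits was not tested. The transcripts of the subunits also differed in GC content, with medians of 52.1% and 47.3%. Members with a bacterial counterpart had a median of -0.01 (47 genes), and those particular to mitochondria 0.01 (28 genes). Within the large subunit the mitochondrial proteins had the higher median, 0.07 (18 genes) against 0.00 (31 genes). Within the small subunit both kinds lay below 0, at -0.12 (9 genes) and -0.07 (16 genes).

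Among proteins of the large subunit that are lower in A, MRPL24, which sits near the exit of the peptide tunnel, had the lowest ratio. Its libraries held 1323, 1341 and 1473 normalised reads in A and 2165, 1645 and 1637 in B. All of A lay below all of B, and library 1 of B stood well above the other two. The log2 ratio in the authors' deposited table was -0.40 (adjusted p from DESeq = 0.227), and it moved to -0.25 without that library. MRPL24 (ENSG00000143314) is on chromosome 1, where its 5 coding blocks span 156707193 to 156708496 (hg19, as for every gene position that follows).

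MRPL51, a protein of the large subunit that bacteria lack, was among the most abundant members per kb of coding sequence, with 11987 normalised reads per kb. Its libraries held 4367, 4077 and 3633.5 normalised reads in A and 5905, 4745 and 4891 in B, again without overlap. The authors' deposited table gave a log2 ratio of -0.36 (adjusted p from DESeq = 0.19; limma adjusted p = 0.0551). MRPL51 (ENSG00000111639) lies on chromosome 12 from 6601440 to 6602302 in 3 coding blocks.

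MRPL16, a core protein next to the peptidyl transferase centre, also had every library of A below those of B. It had 3504, 3512 and 3169 normalised reads in A and 4524, 3936 and 4039 in B. The log2 ratio was -0.30 in the authors' deposited table (adjusted p from DESeq = 0.243; limma adjusted p = 0.0558). MRPL16 (ENSG00000166902) lies on chromosome 11 from 59573823 to 59578131.

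MRPL30 was the least abundant expressed member, with 135 normalised reads per kb of coding sequence. It had 64.5, 61.4 and 58.6 normalised reads in A and 72.4, 71.4 and 94.7 in B, where library 3 stood above the others. The log2 ratio was -0.37 in the authors' deposited table (adjusted p from DESeq = 0.796). MRPL30 (ENSG00000185414, chromosome 2, 99802667 to 99812165) starts 21 bases from the start of MITD1, which runs the other way. Overlapping and opposite genes cannot be told apart here, because no source used gives the strand setting of the counting.

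The small subunit protein MRPS25, one of those added in mitochondria, had the smallest p-value of the members. Its libraries held 2308, 2418 and 2190 normalised reads in A and 2928, 2849 and 3006 in B. Every library of A lay below every library of B, and the libraries within each condition were close. The log2 ratio was -0.34 in the authors' deposited table (adjusted p from DESeq = 0.112), and limma gave -0.35 with a standard error of 0.077 (Benjamini-Hochberg adjusted p = 0.0232). The ratio lay between -0.38 and -0.31 with any 1 library left out, but the limma call was lost without library 2 of A, library 2 of B or library 3 of B. In those fits the smallest adjusted p of any member was 0.0803, 0.0913 and 0.108 (limma), and 2.31%, 2.23% and 2.36% of all genes were called. Leaving out library 1 of A, library 3 of A or library 1 of B instead gave 7, 2 and 4 called members, MRPS25 among them each time, where 13.1%, 9.76% and 6.19% of all genes were called. With a pseudocount of 0.5 or 5 in place of 1, MRPS25 was again the 1 member called, among 9.2% and 9.29% of genes. MRPS25 (ENSG00000131368) lies on chromosome 3 from 15091337 to 15106701 in 5 coding blocks.

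MRPS6, a small subunit protein with a bacterial counterpart, had 1095, 900.1 and 843 normalised reads in A and 1204, 1109 and 1183 in B. The groups did not overlap, though library 1 of A came close to library 2 of B. Its log2 ratio was -0.30 in the authors' deposited table (adjusted p from DESeq = 0.374; chromosome 21, 35446001 to 35514897). MRPS36, the dehydrogenase component, had 533, 466 and 424 normalised reads in A against 570.1, 601 and 562 in B, a log2 ratio of -0.28 (adjusted p from DESeq = 0.529). A pseudogene, MRPS36P1, had a mean of 153 normalised reads, 29.1% of that of MRPS36, so reads could be shared between the copies.

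At the other end, MRPL40, a large subunit protein particular to mitochondria, had the highest ratio. Its libraries held 1920.5, 2098 and 2276 normalised reads in A and 1906, 1523 and 1476 in B. The lowest library of A lay just above library 1 of B, which was higher than the other two of its condition. The log2 ratio was 0.36 in the authors' deposited table (adjusted p from DESeq = 0.232; limma adjusted p = 0.0671), and ran from 0.29 to 0.48 with any 1 library left out. MRPL40 (ENSG00000185608) lies on chromosome 22 from 19420078 to 19423482 in 4 coding blocks.

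MRPL36, a very small protein of the large subunit whose coding sequence is 1 block, was also above B in every library of A. It had 832, 846 and 925 normalised reads in A and 803, 690.1 and 684 in B. The log2 ratio was 0.26 in the authors' deposited table (adjusted p from DESeq = 0.557; chromosome 5, 1798741 to 1799049). MRPL41, another mitochondrial addition to the large subunit, had 1378, 1466 and 1538 in A and 1463, 1084 and 1105.5 in B. Library 1 of B overlapped condition A, and the log2 ratio was 0.26 in the authors' deposited table (adjusted p from DESeq = 0.681).

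MRPS11, MRPS2 and MRPS18A overlapped between the conditions in the same way. MRPS11, which lies on the platform of the small subunit where the message exits, had 4116, 4527 and 5541 normalised reads in A and 4363, 3480.2 and 3499 in B. MRPS2 had 4305, 4897 and 5846 in A and 5071, 3694 and 3875 in B. MRPS18A had 993, 1052 and 1300.1 in A and 1060, 848 and 900.4 in B. Library 3 was the highest of A and library 1 the highest of B in each of the 3 genes. The authors' deposited table gave log2 ratios of 0.32, 0.25 and 0.25, with adjusted p from DESeq of 0.747, 1 and 0.922.

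**Figure D3:**
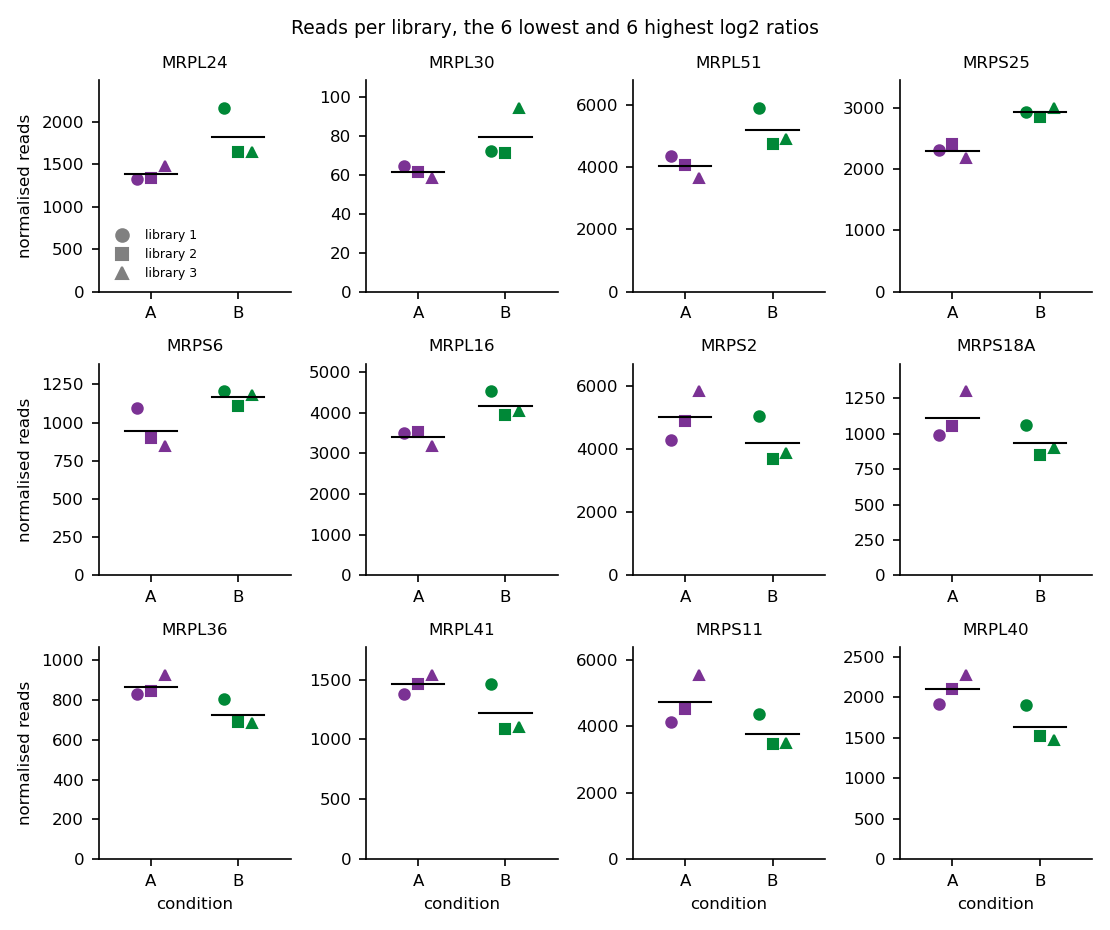
Normalised reads per library (vertical axes, linear from 0) are plotted for the 6 members with the lowest and the 6 with the highest log2 ratio in conditions A and B (horizontal axes), with lines at the means. In the upper row the 3 libraries of A lie below those of B in all 4 genes, from MRPL24 to MRPS25. In each of the 6 highest genes library 1 of B reaches up to or near condition A.

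The S18 protein has paralogues at different places in the ribosome, MRPS18C in the small subunit and MRPS18A in the large one. MRPS18B was not analysed here. MRPS18C had 638, 549 and 479 normalised reads in A and 626, 594 and 638 in B, a log2 ratio of -0.16 with overlap, where MRPS18A had 0.25. A pseudogene, MRPS18CP7, had a mean of 82.5 normalised reads where MRPS18C had 587. MRPS30, the other large subunit protein with a small subunit name, had 2412, 2460.5 and 2508 in A and 2812, 2582 and 2674 in B. All of A lay below B, but the log2 ratio was only -0.13 in the authors' deposited table.

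The stalk of the large subunit, which recruits translation factors, showed no common direction. MRPL10, which anchors it, had 2983, 3101 and 3735 normalised reads in A and 3241, 2689 and 2525.5 in B, a log2 ratio of 0.22. MRPL11, at its base, had 2731, 2597 and 2421 in A and 3139.9, 2541 and 2631 in B, a log2 ratio of -0.10. MRPL12, which forms the stalk's mobile arms, had 1729, 1576 and 1634.5 in A and 1814, 1553 and 1597 in B, a log2 ratio of -0.01. No stalk gene passed an unadjusted p of 0.05 in the authors' deposited table, and A and B overlapped in all 3.

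Of the proteins of the decoding and tunnel regions, MRPS12, which lines the decoding centre, had 2326, 2462 and 2699 normalised reads in A and 2962, 2178 and 2132 in B. MRPL3, a core protein of the large subunit, had nearly equal libraries in A, with 10040, 9991 and 10060 in A and 10748, 9507 and 9456 in B, a log2 ratio of 0.02. MRPL4, whose bacterial counterpart reaches into the exit tunnel, had the largest standard error of the 72, 0.165, with 6156, 7138 and 9396 in A and 8704, 6235 and 6131 in B. Its log2 ratio of 0.11 was far smaller than the range inside either condition. MRPS22 and MRPS34, small subunit proteins in which inherited defects of mitochondrial translation are known, had ratios of -0.11 and 0.22 on the log2 scale, by the authors' deposited table. MRPS22 had 3228, 3072 and 2667 in A and 3337, 3152 and 3182 in B, and MRPS34 had 7398, 7552 and 9072 in A and 7935, 6377 and 6376 in B.

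Levels differed far more between members than between conditions. Per kb of coding sequence, which leaves out UTRs, MRPS21 had 61903 normalised reads, MRPL51 11987 and MRPS34 11040, while MRPL30 had 135 and MRPL38 518. The libraries of MRPL38 held 579, 589 and 698 normalised reads in A and 639, 484 and 556 in B. MRPS21, a small subunit protein with a bacterial counterpart, had condition means of 17289 and 15024, and 15920, 14797 and 14355 in the libraries of B; its libraries in A were not recovered. The medians were 3243 per kb for large subunit proteins with a bacterial counterpart, 3136 for those particular to mitochondria, 3806 and 4079 for the small subunit, against 1096 for all expressed genes. A second row for MRPS17 (ENSG00000249773), with a coding interval of 140 bases, held 1 read in A and 4 in B, while the main row (ENSG00000239789) had a mean of 311 normalised reads.

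**Figure D4:**
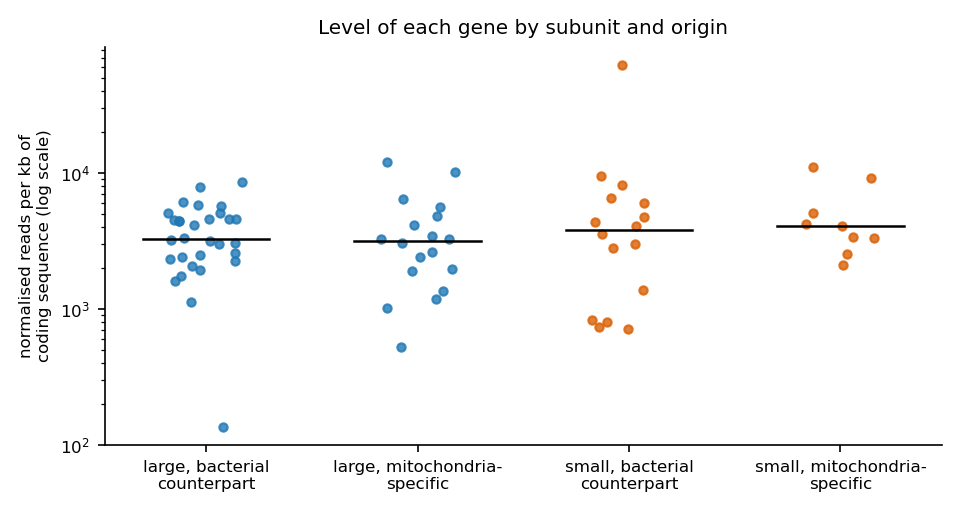
Each point is an expressed member, placed by its normalised reads per kb of coding sequence (vertical axis, log scale) in 4 classes of subunit and origin (horizontal axis), with lines at the medians. The medians lie between 3136 and 4079, and MRPS21 at 61903 and MRPL30 at 135 stand apart from the rest.

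Within each condition 1 library stood apart, in both directions among the members in A and mostly upwards in B. Library 3 of A and library 1 of B were picked out after their values were seen. Summed over the 72 members, the libraries of A held 182592, 182454 and 187404 normalised reads and those of B 201408, 176623 and 177362. Per member, the log2 deviation of library 3 of A from the other two of its condition ran from -0.57 to 0.50, and that of library 1 of B from -0.21 to 0.49. The medians were -0.013 and 0.19, against -0.0033 and 0.011 over expressed genes. Both deviations had the same sign in 63.9% of the members and 70.5% of 12762 genes. The 2 deviations correlated across the 72 members with Pearson's r = 0.74, and across 12762 genes with r = 0.51. They followed the GC content of the transcripts, with r = 0.69 for library 3 of A and 0.80 for library 1 of B across 71 members, and 0.63 for each across 10123 genes. Genes share these libraries and are no independent replicates, so these values are descriptions only.

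The difference between the conditions also followed GC content among the members. The log2 ratio correlated with it at r = 0.53 across 71 members and at r = 0.17 across 10123 genes. In the lowest tertile of members by GC (up to 45.5%), 6 were higher and 19 lower in A with a median of -0.10, and in the highest tertile (over 53.0%), 19 were higher and 5 lower with a median of 0.10. All genes below and above the same bounds had medians of -0.07 and 0.05. Without library 3 of A and library 1 of B the correlation was 0.55 across the members and 0.13 across the genes. The part of base composition in the sign of a member's ratio was not tested.

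**Figure D5:**
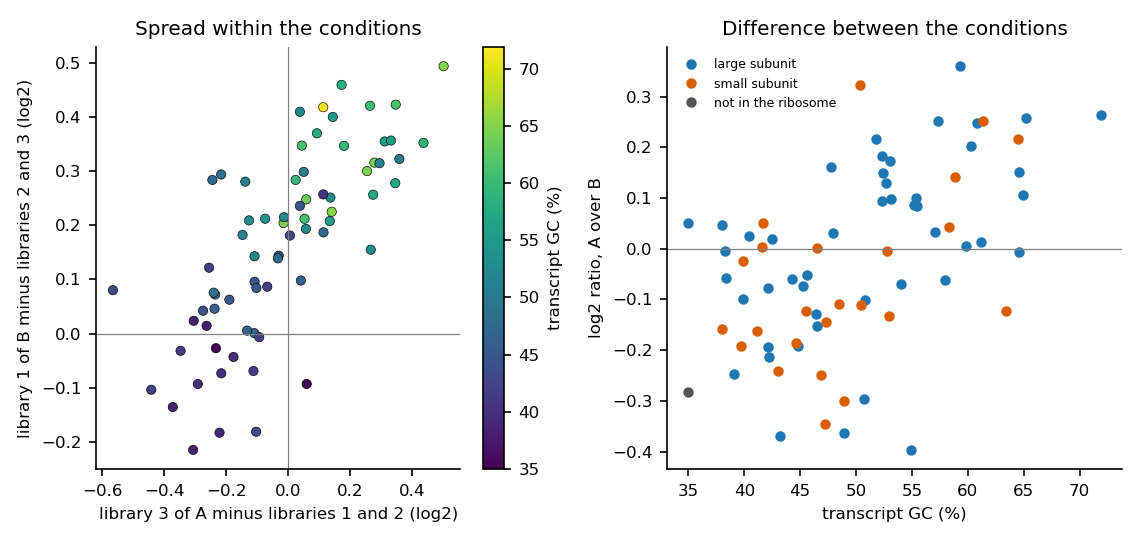
The left panel plots, for 71 members, the log2 deviation of library 3 of A (horizontal axis) against that of library 1 of B (vertical axis), coloured by transcript GC, and the right panel plots the log2 ratio of A over B against GC with colours for the subunits. Points rise together on the left (r = 0.74 over 72 members) and, more loosely, on the right (r = 0.53).

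Leaving out both of these libraries changed the count of calls most. With 2 libraries a condition, limma called 20 of the 72 members (27.8%), 14 higher and 6 lower in A, where 25.9% of all genes were called. Among them were MRPL40, MRPL36, MRPL41, MRPS11, MRPS2 and MRPS18A on the higher side and MRPL24, MRPL51, MRPL16 and MRPS25 on the lower. The libraries were left out because they stood apart from the others of their condition, which narrows the spread by construction, and the members' share was near that of all genes.

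The other proteins and factors of mitochondrial translation were followed in lists of 66 symbols, of which 62 had a row. ESRRA, 1 of the 62, passed an adjusted p of 0.05 by DESeq in the authors' deposited table, and 8 passed unadjusted, 1 higher and 7 lower in A. Of the 62, 61 were expressed. Among all 13565 expressed genes, 6.04% passed adjusted and 20.8% unadjusted, 1208 higher and 1608 lower. ESRRA encodes a nuclear receptor that activates genes of mitochondrial energy metabolism. It had 807, 795 and 688 normalised reads in A and 1507, 1335.5 and 1458 in B, far apart, with a log2 ratio of -0.91 (adjusted p from DESeq = 7.79e-10; limma adjusted p = 0.000712). The other regulators did not pass: MYC was at -0.33 and NRF1 at 0.13, and GABPA, the ETS factor named above, at -0.14.

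Expressed genes passed at 6.04% adjusted and 20.8% unadjusted, and limma called 9.26% of 16810 genes, shares that stand beside each list here. Of the mitoribosomal proteins listed under other symbols, 0 of 7 passed an adjusted p of 0.05 by DESeq, 3 passed unadjusted and limma called 0. MRP63, in the large subunit, was at 0.39 and CHCHD1 and PTCD3, in the small subunit, were at -0.32 and -0.26, while the GTP-binding small subunit protein DAP3 was at -0.07. Of 21 assembly factors 0 passed, with 2 unadjusted and 0 called by limma, and their median was -0.07. GRSF1, which binds RNA in mitochondrial granules, was at -0.32 and TFB1M, which methylates the small ribosomal RNA, at -0.30. Of 19 translation factors and regulators 0 passed, adjusted or unadjusted, limma called 0, and the median was 0.02. Of 5 mitochondrial transcription factors 0 passed, with 1 unadjusted and 0 called by limma. That one was TFAM, which packs the mitochondrial genome, at -0.46 in the authors' deposited table (adjusted p from DESeq = 0.444). The mitochondrially encoded genes were not analysed here.

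Neighbouring genes gave no shared direction. A protein-coding expressed gene that starts within 1000 bases and runs the opposite way was found for 14 of 73 members, by GENCODE 29. The signs matched in 7 of the 14, and 0 of these neighbours passed an adjusted p of 0.05 by DESeq, an unadjusted p of 0.05 or the limma call. The shares were 6.04% and 20.8% of expressed genes, and 9.26% of the genes in the limma fit. One such pair is formed by members of both subunits, MRPS11 and MRPL46, whose starts lie 34 bases apart, with log2 ratios of 0.32 and 0.15. This pair is counted from both sides in the 14 and in the 7. Of 39 pseudogene rows from 28 member genes, 4 reached a mean of 50. The DESeq adjusted p was passed by 0 of these rows, against 2.54% of all genes. Unadjusted, 1 of the rows passed, against 9.61% of all genes, and limma called 0 of 14. The largest, MRPL3P1, had 7.88% of the mean of MRPL3.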

How the data were processed

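RNA was sequenced from 3 samples with the PRDM11 hairpin and 3 with the scrambled one. The submitters' processing notes name STAR, HTSeq 0.5.4p5, DESeq 1.14.0 and build hg19. Their roles, the annotation and the strandedness were not given in the sources used here. The deposited table holds condition means as a signal in normalised reads, a fold (the ratio of B to A), its log2 and a p-value with its adjusted p, per the file headers. The deposited log2 is printed with its sign turned. A second deposited file, an hg19 track, gives coding intervals with a score that was not used; 97.6% of the intervals matched coding lengths with both ends counted from 1. The tables used hold 0 columns of values per sample.

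Each mean, printed with 15 digits, is a sum of whole reads over size factors, so an integer search gave the reads of each library (means up to 30000; 97.9% of rows in A and 100% in B had 1 solution). For means above 1500, and for some below it, each library had to lie at 0.6 to 1.6 times the mean. The search was tested on simulated means of A and B. Rows recovered in all 6 libraries hold 56.4% and 58.4% of the summed means. Limma 3.58.1 in R 4.3.3 was run on log2 of normalised reads plus 1, for genes with a mean of at least 10, with Benjamini-Hochberg adjustment, and its standard errors are given in place of the ones that the deposited p would imply. The fit was tested on simulated data as well. Tables were made with Python 3.11.15. GC contents come from GENCODE 29 transcripts, for 74 of the 76 rows.

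The members and the other lists were chosen with earlier results of these data known. Members are named by these rules: called ones, the 6 highest and 6 lowest log2 ratios, the 3 most and 3 least abundant per kb of coding sequence, and the stalk, decoding, disease, S18, MRPS30 and MRPS36 genes. Alternatives were other thresholds, pseudocounts and scalings and leaving out each library.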

Additional observations from a re-analysis of the deposited data

How the results depend on the processing

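The deposited DESeq p gave 0 called members at an adjusted p of 0.1, of 0.01 and when adjusted over genes with a mean of at least 10, where the smallest was 0.0576. Limma on recovered reads called 1 member, with a pseudocount of 1, 0.5 or 5. With 1 library left out the count was 0 to 7 of 72, highest without library 1 of A (7, against 13.1% of all genes), then without library 1 of B (4, against 6.19%) and library 3 of A (2, against 9.76%). It was 20 without library 3 of A and library 1 of B, a choice made after seeing the data. The cause was not tested. The median log2 ratio lay between -0.047 and 0.022 with 1 library left out, was 0.014 with upper quartile scaling and 0.031 without both libraries. All of these differ from the main value by less than the spread between libraries, as did all 201 values of the named members. Leaving out 1 of 3 libraries can hardly move a ratio by more than that spread, so this outcome shows no stability. With any 1 library left out, 50 of 72 members kept the sign of their log2 ratio. No paired analysis was possible because the condition means carry no replicate numbers. Depth limits MRPL30 and the second MRPS17 row most. The search leaves 3 abundant members without values per library in A. For means above 1500, and for some below it, the search bounds how far a library may lie from the others.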
